A study of Mus musculus with 4 samples.

Results

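M+CMs, the αMHC+ cardiomyocytes of day 10.5, were compared with PCBs, the PDGFRα+Flk1- cardioblasts of day 5.5 that had been induced with CsAYTE. These 2 arrays were picked by their titles from the 4 arrays of the series. The other arrays held Flk1+ MPCs, which are mesodermal precursor cells sorted at day 4.5, and sfPCBs, which formed spontaneously by day 5.5 without CsAYTE, and their levels are given beside those of PCBs and M+CMs. All cells came from mouse pluripotent stem cells that were differentiated without leukemia inhibitory factor. CsAYTE combines Cyclosporin A with Y27632, which blocks ROCK, with Trolox, which is an antioxidant, and with EW7197, which blocks ALK5. PCBs received CsAYTE and sfPCBs did not, and for M+CMs the labels leave this unsaid. The methods describe M+CMs as the further differentiated, αMHC-GFP+ progeny of PCBs, and name EMG7, a mouse ES cell line whose GFP is driven by the αMHC promoter, as a source line. Sorted Flk1+ MPCs were replated either on OP9 stromal feeder cells, which had been treated with mitomycin C, or on gelatin. The paper reports no induction of PCBs without feeder cells, which places the PCB array after OP9 culture. For sfPCBs and M+CMs, which of these preceded the arrays was not stated. Each population had 1 array and no replicates, whether cultures were pooled was not stated, and time in culture and the sort change together between the compared arrays, so their parts cannot be told apart.

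An embryonic heart muscle cell that matures assembles sarcomeres, in which myosin thick filaments pull on actin thin filaments anchored at the Z-disc. It builds a sarcoplasmic reticulum that releases and takes up calcium with each beat, ion channels that shape the action potential, and mitochondria that burn fatty acids in place of glucose. Dividing cardiac progenitors carry the replication and mitosis machinery, which heart muscle cells shut down after birth. Several sarcomere proteins come as a fetal and an adult isoform, among them the troponin I genes Tnni1 and Tnni3 and the myosin heavy chains Myh7 and Myh6 of the mouse ventricle.

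The ratio of M+CMs to PCBs was taken for 17131 named genes that were above background in at least 1 of the arrays, 15642 of them in both, 897 in M+CMs alone and 592 in PCBs alone. Here and below, above background in M+CMs alone or in PCBs alone refers to the compared arrays and leaves the other arrays aside. Signals are on the processed intensity scale after each array was brought to a common 75th percentile, and differences are log2 ratios of M+CMs over PCBs. The ± after a log2 ratio is the error that the scanner software's error model gives, which covers the spots of an array and not cultures. It was close to 0.20 for bright genes, and no test between populations could be made. At least a 2-fold difference was measured for 3467 genes higher in M+CMs (20.2%) and 2933 genes lower (17.1%), and these shares are the background for the gene lists that follow. At least a 30-fold difference was measured for 132 genes higher (0.771%) and 170 genes lower (0.992%). Counted by probe, the 2-fold shares were 20.5% higher and 15.4% lower, and the 30-fold shares 0.646% and 0.819%. The median gene had a log2 ratio of 0.11, and the middle range from the lower to the upper quartile ran from -0.62 to 0.80. Over all 31131 probes, 57.1% of the 2-fold differences were increases, and this share was 45.6% without scaling, where the median of all probes moved by -0.21. In such bulk RNA, fewer cells of a type and less RNA per cell cannot be told apart.

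**Figure D1:**
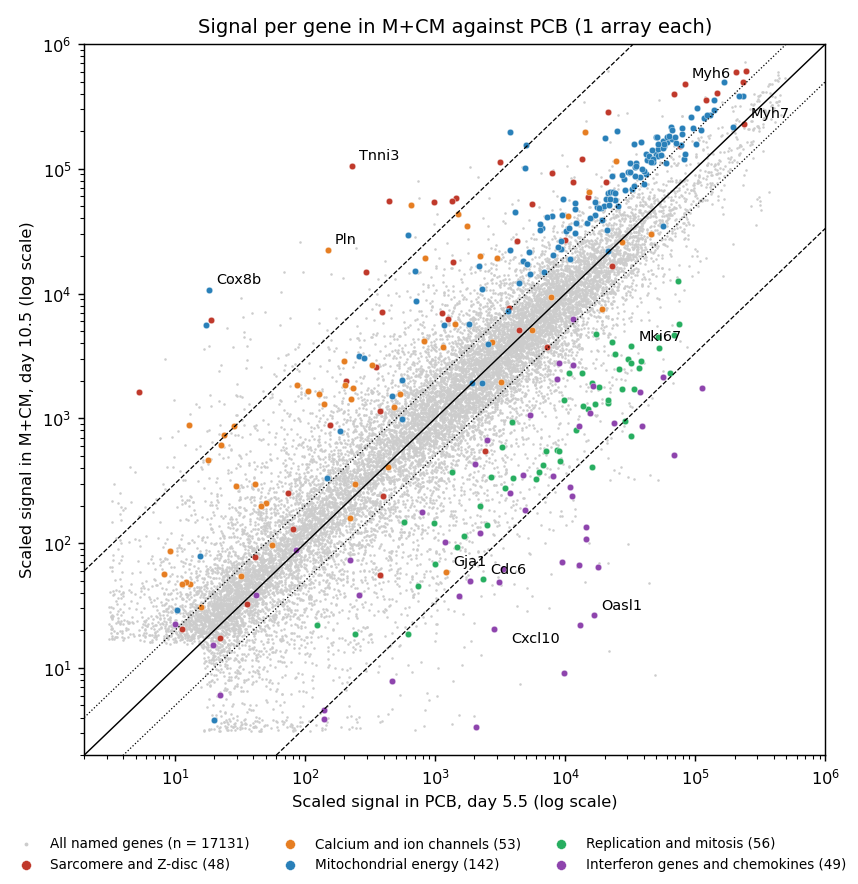
Scaled signal of each gene in PCBs (horizontal, log scale) and M+CMs (vertical, log scale), 1 array each, for 17131 genes in grey and 5 groups of lists in colour. The solid line marks equal signal, the dotted lines a 2-fold and the dashed lines a 30-fold difference. Sarcomere, channel and mitochondrial genes lay above the solid line for the most part, and replication, mitosis, interferon and chemokine genes below it.

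The identity of the populations was looked at through their defining genes. The signal of Pdgfra (NM_011058, chromosome 5), the receptor used to sort PCBs, was 9136 in PCBs and 918 in M+CMs, beside 7237 in Flk1+ MPCs and 3647 in sfPCBs, so it was highest in PCBs and had a log2 ratio of -3.31 ± 0.20. Kdr (NM_010612, chromosome 5) encodes Flk1, which the PCB sort excluded, but its signal was 7499 in M+CMs and 7272 in PCBs, against 6661 in sfPCBs and 11263 in Flk1+ MPCs, and it was not low in PCBs. The other probe of Kdr gave a log2 ratio of 1.47. The cardiomyocyte genes Myh6, Tnnt2, Actn2, Myl7, Nkx2-5, Ttn and Ryr2 were above background in both arrays and higher in M+CMs. Of these, Myh6 is not independent of the sort, because its promoter drives the GFP by which M+CMs were sorted. Among markers of other cells, 8 of the 12 endothelial genes were above background in PCBs and 8 in M+CMs. Cdh5, Tie1, Emcn and Sox17 were below background in both. Erg went from a PCB signal of 21.0 to 240 in M+CMs (log2 ratio 3.51 ± 0.31), and Pecam1 had a log2 ratio of 1.04 ± 0.21. Egfl7 went the other way (-1.38 ± 0.20), and the remaining 5 endothelial genes above background stayed within 2-fold. The shares past 2-fold were thus 25% higher and 12.5% lower, against 20.2% and 17.1% of all genes. The 12 blood genes had a summed signal of 4156 in PCBs and 3657 in M+CMs, and Spi1 was below background in both. Of the 10 blood genes above background, 6 were at least 2-fold lower in M+CMs and 2 higher. These are 60% and 20%, against 17.1% and 20.2% of all genes. The embryonic globin Hbb-bh1 went from a PCB signal of 2525 to 89.9 in M+CMs, Hba-x was at least 30.4-fold lower, and the transcription cofactor Lmo2 went from a PCB signal of 571 to 3251 in M+CMs. Among the 12 skeletal muscle genes, the regulators Myod1, Myog and Myf5 were also below background in both. Of the 6 above background, 3 rose past 2-fold in M+CMs and 0 fell past it. These are 50% and 0%, beside 20.2% and 17.1% of all genes. The 3 were Myh8, described below, Actn3 and Pax7. Actn3 went from a PCB signal of 112 to 310 in M+CMs (log2 ratio 1.46 ± 0.21). Pax7 was dim, at 24.3 in M+CMs, and not above background in PCBs. The part of these other cells in the results was not tested.

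The thick filament genes were higher in M+CMs. All 15 members of this list were above background in at least 1 array, 14 of them in both, and 13 had at least 2-fold more signal in M+CMs and 0 at least 2-fold less, with a median log2 ratio of 2.65 against 0.11 for all genes. The adult heavy chain Myh6 (NM_001164171, chromosome 14), whose promoter drives the GFP by which M+CMs were sorted, had a signal of 82857 in PCBs and 478630 in M+CMs, beside 116 in Flk1+ MPCs and 128 in sfPCBs. It was thus dim in Flk1+ MPCs and sfPCBs and already bright in PCBs, and M+CMs were 5.78-fold higher than PCBs (log2 ratio 2.53 ± 0.20, and 5.86 for its other probe). The fetal heavy chain Myh7 (NM_080728, chromosome 14) had a signal of 228990 in M+CMs and 235860 in PCBs, against 525 in sfPCBs and 122 in Flk1+ MPCs. It differed between PCBs and M+CMs by less than its error (log2 ratio -0.04 ± 0.20), whereas the difference of Myh6 was larger than its error.

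The regulatory light chain Myl2 (NM_010861, chromosome 5), the ventricular isoform, had a signal of 3150 in PCBs and 113950 in M+CMs, beside 66.3 in Flk1+ MPCs and 16.5 in sfPCBs (log2 ratio 5.18 ± 0.20). The atrial light chain Myl7 differed less, with 353290 in M+CMs and 119770 in PCBs, against 588 in sfPCBs and 6095 in Flk1+ MPCs (log2 ratio 1.56 ± 0.20). Both were higher in M+CMs, and the ventricular gene had the larger ratio. Myosin-binding protein C, encoded by Mybpc3, went from a PCB signal of 21228 to 283150 in M+CMs (log2 ratio 3.74 ± 0.20), and titin, the elastic filament encoded by Ttn (NM_011652, chromosome 2), from a PCB signal of 13455 to 120590 in M+CMs (log2 ratio 3.16 ± 0.20, with other probes between 1.19 and 3.43). The M-band gene Myom2 (NM_008664, chromosome 8) had the largest ratio of the list, with a signal of 19 in PCBs and 6080 in M+CMs, beside 85.4 in Flk1+ MPCs and 23.6 in sfPCBs (log2 ratio 8.32 ± 0.34). The PCB signal of Myom2 was close to the lowest called above background there (15.5). Its relative Myom1 was already at 4220 in PCBs and had a log2 ratio of 2.65. Myom3 was above background in PCBs, at 22.1, and in sfPCBs, at 48.2, and not in M+CMs, at 17.4. The perinatal skeletal heavy chain Myh8 was also bright, with 278290 in M+CMs and 29629 in PCBs, against 47.5 in sfPCBs and 61.5 in Flk1+ MPCs (log2 ratio 3.23 ± 0.20), and whether its probe also detects other myosin heavy chains was not tested.

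Of the thin filament and Z-disc genes, 33 of 34 measured members were above background in at least 1 array, of which 22 had at least 2-fold more signal in M+CMs and 2 at least 2-fold less, with a median log2 ratio of 1.59. The cardiac troponin I gene Tnni3 (NM_009406, chromosome 7) had a signal of 228 in PCBs and 105990 in M+CMs, beside 52.5 in Flk1+ MPCs and 64.1 in sfPCBs, which made M+CMs 466-fold higher than PCBs (log2 ratio 8.86 ± 0.21), and it was low in all 3 earlier populations. The fetal gene Tnni1 (NM_021467, chromosome 1) had a signal of 150980 in M+CMs and 76570 in PCBs, against 7549 in sfPCBs and 189.8 in Flk1+ MPCs (log2 ratio 0.98 ± 0.20), just under a 2-fold difference, so M+CMs had a high signal of both troponin I genes. The fast skeletal genes Tnni2 and Tnnt3 were the 2 members at least 2-fold lower, with log2 ratios of -2.12 and -2.77.

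Cardiac troponin T, Tnnt2 (NM_011619, chromosome 1), had a signal of 145590 in PCBs and 403180 in M+CMs, beside 150.2 in Flk1+ MPCs and 3176 in sfPCBs (log2 ratio 1.47 ± 0.20). The slow skeletal gene Tnnt1 had 54860 in M+CMs and 444 in PCBs, against 951 in sfPCBs and 628 in Flk1+ MPCs (log2 ratio 6.95 ± 0.20). Tnnt2 was thus bright in PCBs, and Tnnt1 was not. The Z-disc crosslinker α-actinin 2, Actn2 (NM_033268, chromosome 13), had 976 in PCBs and 53981 in M+CMs, beside 305 in Flk1+ MPCs and 86.2 in sfPCBs (log2 ratio 5.79 ± 0.20). The Z-disc proteins Csrp3 and Ankrd1 had log2 ratios of 5.34 and 5.35, and the small heat shock protein Cryab, which protects the sarcomere, 3.55. The calcineurin-binding Z-disc protein Myoz2 (NM_021503, chromosome 3) was above background in M+CMs alone, at 1639, and was at least 105-fold higher there than the lowest signal called above background in PCBs. Tropomyosin 1 was a case of disagreement among probes. The brightest of its 5 probes gave a log2 ratio of 1.07 and another -3.90, so Tpm1 has no settled direction, although by its brightest probe it is 1 of the 22 genes counted as higher. With the mean of all probes of each gene the count was 21.

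The promoter of Tnni3 is shown because this gene had the largest ratio of the sarcomere lists. The window runs from 250 bases before to 50 bases after the RefSeq start (GRCm38.p6), 5′ to 3′ on the strand of the gene, and the capital marks the first base of the gene.
Tnni3, chr7:4522479-4522778, minus strand: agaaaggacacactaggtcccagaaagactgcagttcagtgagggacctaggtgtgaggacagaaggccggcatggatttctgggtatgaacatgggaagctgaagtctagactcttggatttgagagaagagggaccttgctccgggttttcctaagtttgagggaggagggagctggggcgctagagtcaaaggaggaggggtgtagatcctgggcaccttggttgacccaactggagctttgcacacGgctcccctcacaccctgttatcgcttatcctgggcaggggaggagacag

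**Figure D2:**
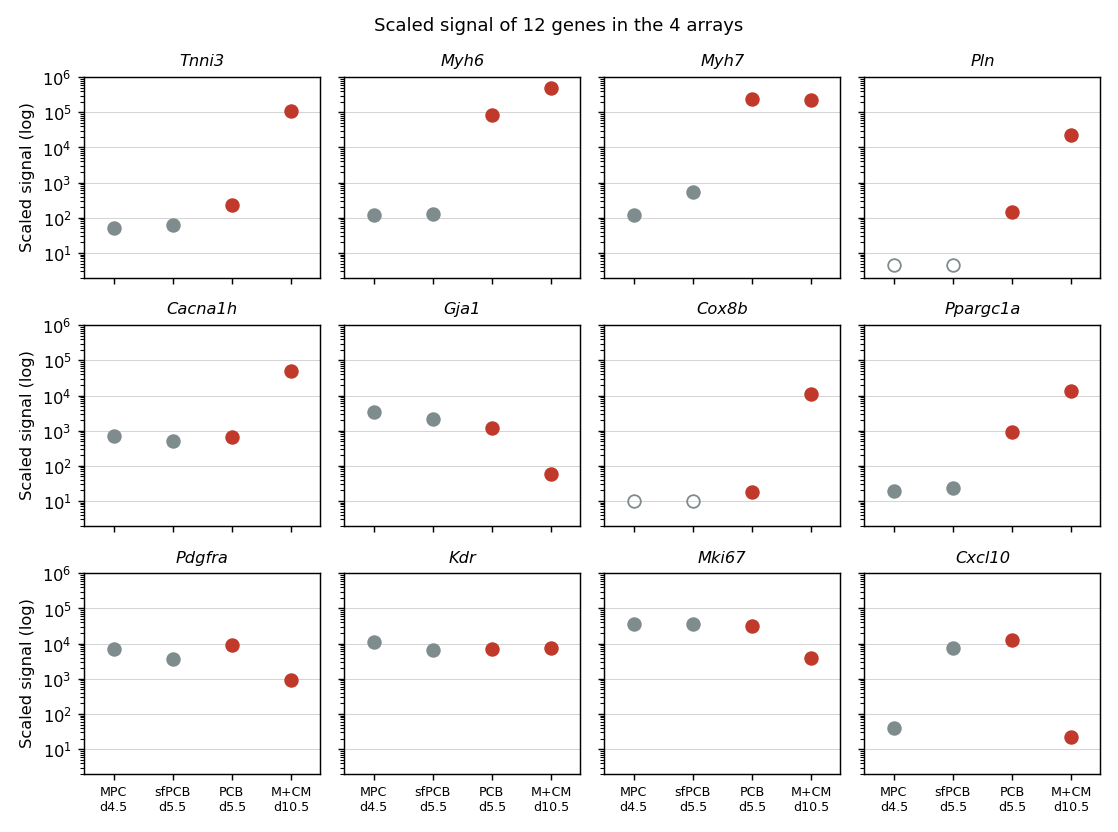
Scaled signal (log scale) of 12 genes in the 4 arrays, with PCBs and M+CMs in red, the other populations in grey, and open circles for signals not above background. Tnni3, Pln and Cox8b were low until day 10.5, Myh7 differed between PCBs and M+CMs by less than its error, and Mki67, Pdgfra, Gja1 and Cxcl10 were lower in M+CMs than in PCBs.

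Calcium handling genes were higher in M+CMs for 15 of 20 members, with 1 at least 2-fold lower and a median log2 ratio of 2.37. The ryanodine receptor Ryr2, which releases calcium from the sarcoplasmic reticulum, had a signal of 19950 in M+CMs and 2224 in PCBs, against 227 in sfPCBs and 38 in Flk1+ MPCs (log2 ratio 3.16 ± 0.20). The pump Atp2a2, which takes calcium back up, had 14042 in PCBs and 196480 in M+CMs, beside 1825 in Flk1+ MPCs and 2083 in sfPCBs (log2 ratio 3.81 ± 0.20). Both were brighter in PCBs than in Flk1+ MPCs and sfPCBs and brighter again in M+CMs. Phospholamban, the brake of this pump encoded by Pln (NM_023129, chromosome 10), stood further apart, with 22372 in M+CMs and 149 in PCBs, against 4.4 in sfPCBs and 4.56 in Flk1+ MPCs (log2 ratio 7.23 ± 0.21). It was not above background in Flk1+ MPCs or sfPCBs. Sarcolipin, the related inhibitor encoded by Sln, went from a PCB signal of 28.4 to 861 in M+CMs (log2 ratio 4.92 ± 0.27), and triadin, which anchors the release complex and is encoded by Trdn, from a PCB signal of 22.7 to 613 in M+CMs (log2 ratio 4.76 ± 0.31). The store protein Casq2 was above background in M+CMs (85.65) and not in PCBs (9.13), and was at least 5.51-fold higher in M+CMs. It was also above background in Flk1+ MPCs, at 57.2, and in sfPCBs, at 30.9. The exchanger Slc8a1, which exports calcium across the cell membrane, had a log2 ratio of 3.03. The member that was lower was Itpr1, the inositol trisphosphate receptor, at 19069 in PCBs and 7578 in M+CMs (log2 ratio -1.33 ± 0.20). Calreticulin, a calcium-binding chaperone known for its part in the embryonic heart and encoded by Calr, had a log2 ratio of -0.59, within 2-fold.

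Ion channel and gap junction genes were higher in M+CMs for 24 of the 33 members above background, and 1 was at least 2-fold lower, with a median log2 ratio of 2.35. Of the 33, 7 were above background in M+CMs alone. The T-type calcium channel Cav3.2, Cacna1h (NM_021415, chromosome 17), had a signal of 654 in PCBs and 50821 in M+CMs, beside 726 in Flk1+ MPCs and 509 in sfPCBs (log2 ratio 6.28 ± 0.20). Its level was alike in the 3 earlier populations and high in M+CMs, although its other probe gave only 1.54. The other T-type channel, Cacna1g, went from a PCB signal of 105 to 1655 in M+CMs (log2 ratio 3.98 ± 0.21), and the L-type channel of the heart, Cacna1c, from a PCB signal of 49.7 to 210.0 in M+CMs (log2 ratio 2.08 ± 0.23).

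The inward rectifier Kir2.1, Kcnj2 (NM_008425, chromosome 11), which holds the resting potential, had 57 in M+CMs and 8.23 in PCBs, against 3.37 in sfPCBs and 3.22 in Flk1+ MPCs. It was above background in M+CMs alone and at least 3.67-fold higher there, and its signal stayed dim. The transient outward channel Kcnd2 had 12.8 in PCBs and 886 in M+CMs, beside 3.49 in Flk1+ MPCs and 4.36 in sfPCBs, and was at least 57-fold higher. Kcnk3, a background potassium channel, had a log2 ratio of 4.41, and Kcnj5, an atrial and nodal channel opened by acetylcholine signalling, 4.53. Of the pacemaker channels, Hcn4 had 55.9 in PCBs and 97.1 in M+CMs (log2 ratio 0.80 ± 0.24) and Hcn2 27292 in PCBs and 25874 in M+CMs (log2 ratio -0.08 ± 0.20).

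Of the sodium channel genes, the auxiliary subunit Scn4b had a log2 ratio of 2.11. Nav1.3, Scn3a (NM_018732, chromosome 2), had 54.6 in M+CMs and 31.9 in PCBs, against 20.8 in sfPCBs and 4.13 in Flk1+ MPCs (log2 ratio 0.78 ± 0.29), with its other probes reaching 2.07. Connexin 43, Gja1 (NM_010288, chromosome 10), the main gap junction protein of the working ventricle, was, by its single probe, the member that was lower, with 1199 in PCBs and 59 in M+CMs, beside 3414 in Flk1+ MPCs and 2162 in sfPCBs (log2 ratio -4.35 ± 0.22). Connexin 40, encoded by Gja5 and known from the atria and the conduction system, went the other way and was at least 26.2-fold higher in M+CMs by its brighter probe, while its other probe gave a log2 ratio of 0.17. Connexin 45, Gjc1, differed by -0.12 ± 0.20.

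Among membrane receptors, 5 of 8 above background had at least 2-fold more signal in M+CMs and 0 at least 2-fold less. The muscarinic receptor Chrm2, which slows the heart, had 1263 in M+CMs and 19 in PCBs, against 7.34 in sfPCBs and 11.4 in Flk1+ MPCs (log2 ratio 6.05 ± 0.35). The β1-adrenergic receptor Adrb1, which speeds it, had 73.1 in PCBs and 3278 in M+CMs, beside 189 in Flk1+ MPCs and 47.5 in sfPCBs (log2 ratio 5.49 ± 0.21, and 1.46 for its other probe). Both receptors, which serve the autonomic control of the heart, were dim until day 10.5. The PCB signal of Chrm2 was close to the lowest called above background there (15.5). Of the natriuretic peptides, Nppa (NM_008725, chromosome 4) had 495 in M+CMs and 182 in PCBs, against 79.6 in sfPCBs and 59.2 in Flk1+ MPCs (log2 ratio 1.44 ± 0.21), Nppb had a log2 ratio of 0.74, and Nppc was below background in both. The protease Corin, which processes the Nppa precursor, had a log2 ratio of 4.08.

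**Figure D3:**
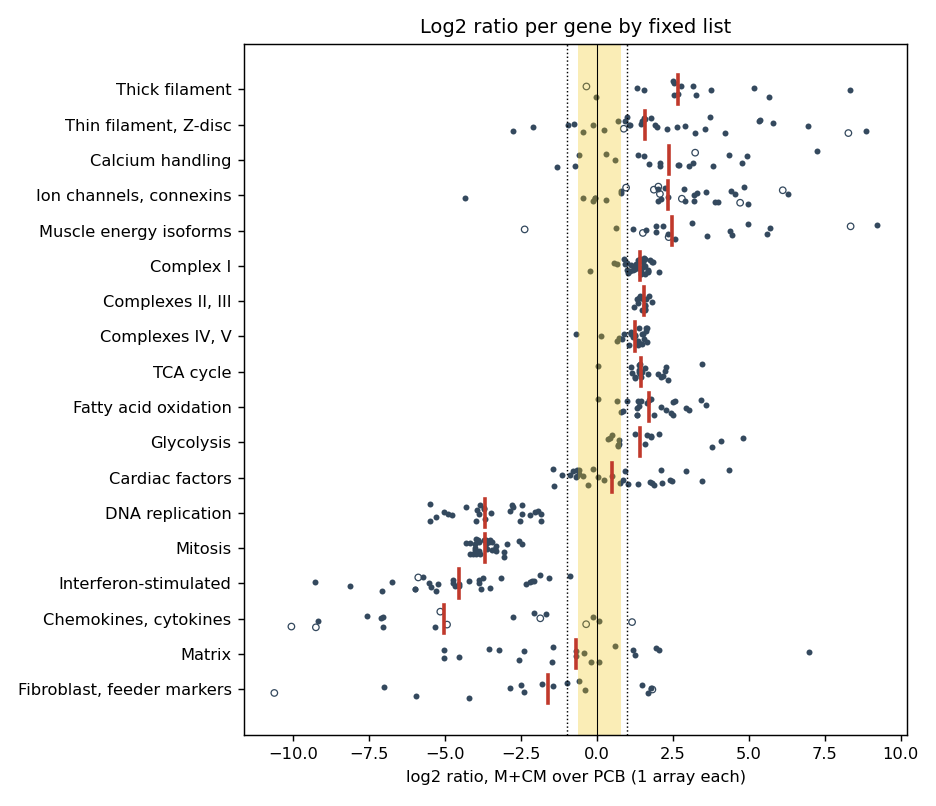
Log2 ratio of M+CMs over PCBs (horizontal, 1 array each) for each member above background of 18 gene lists. Filled points were above background in both arrays and open points in 1, red bars are list medians, the yellow band spans the quartiles of all genes (-0.62 to 0.80), and dotted lines mark a 2-fold difference. Respiratory chain members lay close together, between -0.71 and 2.03, whereas contractile and channel genes were spread widely.

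Nuclear genes of the respiratory chain were higher in M+CMs, by a modest and even amount. Of 36 genes of complex I, 29 were at least 2-fold higher and 0 lower, with a median log2 ratio of 1.41. All 14 genes of complexes II and III with cytochrome c were at least 2-fold higher (median 1.54), and 20 of 26 genes of complex IV and the ATP synthase (median 1.25). Their ratios lay close to the 2-fold line, so that without scaling the counts were 25, 14 and 14. The complex I subunit Ndufs1, for example, had 31608 in PCBs and 111600 in M+CMs, beside 38001 in Flk1+ MPCs and 27265 in sfPCBs (log2 ratio 1.82 ± 0.20), the complex III subunit Uqcrfs1 89148 in M+CMs and 27320 in PCBs, against 18629 in sfPCBs and 33303 in Flk1+ MPCs (log2 ratio 1.71 ± 0.20), and the ATP synthase subunit Atp5a1 92023 in PCBs and 261510 in M+CMs, beside 99915 in Flk1+ MPCs and 73150 in sfPCBs (log2 ratio 1.51 ± 0.20). These 3 genes had similar levels in the 3 earlier populations, and M+CMs stood apart. No gene of these lists differed at least 2-fold between PCBs and Flk1+ MPCs, a comparison that shares the PCB array. The subunits that went the other way were Ndufab1 (log2 ratio -0.25 ± 0.20) and Atp5c1 (-0.71 ± 0.20, with 1.12 for its other probe).

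The muscle isoforms of energy metabolism differed far more than these ubiquitous subunits. Of 20 members, 18 had at least 2-fold more signal in M+CMs and 1 at least 2-fold less, with a median log2 ratio of 2.47, and 5 were at least 30-fold higher. The cytochrome oxidase subunit Cox8b (NM_007751, chromosome 7) had the largest ratio of all named genes above background in both arrays. Its signal was 10753 in M+CMs and 18.2 in PCBs, against 9.97 in sfPCBs and 9.77 in Flk1+ MPCs, or 591-fold higher in M+CMs (log2 ratio 9.21 ± 0.35), while its ubiquitous counterpart Cox8a went from a PCB signal of 138590 to 297890 in M+CMs. The PCB signal of Cox8b was close to 15.5, the lowest called above background in PCBs, so the size of its ratio is uncertain. The other heart isoforms followed, with 3774 in PCBs and 196240 in M+CMs, beside 32.8 in Flk1+ MPCs and 177 in sfPCBs for Cox6a2 (log2 ratio 5.70 ± 0.20) and 101810 in M+CMs and 4917 in PCBs, against 1569 in sfPCBs and 2474 in Flk1+ MPCs for Cox7a1 (log2 ratio 4.37 ± 0.20). Cox6a2 and Cox7a1 were brighter in PCBs than in Flk1+ MPCs, and Cox8b was not above background in Flk1+ MPCs or sfPCBs.

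Myoglobin, the oxygen store encoded by Mb (NM_013593, chromosome 15), was above background in M+CMs alone, with 17.2 in PCBs and 5615 in M+CMs, beside 3.7 in Flk1+ MPCs and 17.9 in sfPCBs, which made it at least 326-fold higher. Muscle glycogen phosphorylase, Pygm, had 29678 in M+CMs and 612 in PCBs, against 460.1 in sfPCBs and 595 in Flk1+ MPCs (log2 ratio 5.60 ± 0.20), and muscle phosphoglycerate mutase, Pgam2, 4963 in PCBs and 155830 in M+CMs, beside 453 in Flk1+ MPCs and 1166 in sfPCBs (log2 ratio 4.97 ± 0.20). Both act on glycogen and glucose in muscle. Muscle creatine kinase, Ckm, was dim even in M+CMs, at 15.5 in PCBs and 79.2 in M+CMs, and at least 5.09-fold higher. Pdk4, which restrains the use of pyruvate, had a log2 ratio of 4.43, and Ampd1, the muscle AMP deaminase, was the member that was lower, near the background in both arrays.

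The tricarboxylic acid cycle and the oxidation of fatty acids went the same way. Of 21 genes of the cycle and of pyruvate entry, 20 had at least 2-fold more signal in M+CMs and 0 at least 2-fold less (median log2 ratio 1.44). The mitochondrial pyruvate carrier Mpc1 had 44649 in M+CMs and 4082 in PCBs, against 3179 in sfPCBs and 3779 in Flk1+ MPCs (log2 ratio 3.45 ± 0.20). Mpc1 had nearly the same level in the 3 earlier populations. Of 25 genes of fatty acid oxidation, 21 were at least 2-fold higher and 0 lower (median 1.70). Acaa2, which catalyses the last step of the spiral, had 24914 in PCBs and 200910 in M+CMs, beside 11977 in Flk1+ MPCs and 14771 in sfPCBs (log2 ratio 3.01 ± 0.20), and Acadl, a dehydrogenase of its first step, 16643 in M+CMs and 2185 in PCBs, against 1886 in sfPCBs and 2190 in Flk1+ MPCs (log2 ratio 2.93 ± 0.20). The muscle gate of fatty acid entry, Cpt1b, had 3737 in PCBs and 22361 in M+CMs, beside 433 in Flk1+ MPCs and 400.0 in sfPCBs (log2 ratio 2.58 ± 0.20), and the uptake receptor Cd36 996 in M+CMs and 554 in PCBs, against 106 in sfPCBs and 12.7 in Flk1+ MPCs (log2 ratio 0.85 ± 0.20). Both Cpt1b and Cd36 were brighter in PCBs than in the populations without CsAYTE.

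Glycolysis was not lower in M+CMs. Of 16 genes, 9 were at least 2-fold higher and 0 lower, with a median log2 ratio of 1.42, and 11 of the 16 were also at least 2-fold higher in Flk1+ MPCs than in PCBs. The share of all genes past 2-fold in that second comparison was not counted. Relative to PCBs, the list median was a log2 ratio of 1.42 in Flk1+ MPCs and 0.18 in sfPCBs, so the list was dimmest at day 5.5. Both counts and these medians use the same PCB array. Pgk1 had 78879 in PCBs and 267060 in M+CMs, beside 334950 in Flk1+ MPCs and 88598 in sfPCBs (log2 ratio 1.76 ± 0.20), and the aldolase Aldoc 42944 in M+CMs and 1554 in PCBs, against 2022 in sfPCBs and 18644 in Flk1+ MPCs (log2 ratio 4.79 ± 0.20). Both were bright at day 4.5 and day 10.5 and dimmer in between. Hexokinase 1, Hk1, differed from that course, with 9455 in PCBs and 129310 in M+CMs, beside 10350 in Flk1+ MPCs and 14171 in sfPCBs (log2 ratio 3.77 ± 0.20). Hexokinase 2 differed by 0.70 ± 0.20 and Gapdh by 0.35 ± 0.20, both under 2-fold, although another probe of Gapdh gave 1.22.

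Of 13 regulators of mitochondrial and fat metabolism, 5 had at least 2-fold more signal in M+CMs and 1 at least 2-fold less (median log2 ratio 0.81). The coactivator PGC-1α, Ppargc1a (NM_008904, chromosome 5), had 13534 in M+CMs and 927 in PCBs, against 23.3 in sfPCBs and 19.1 in Flk1+ MPCs (log2 ratio 3.87 ± 0.20), and its relative Ppargc1b 174 in PCBs and 3642 in M+CMs, beside 317 in Flk1+ MPCs and 103 in sfPCBs (log2 ratio 4.39 ± 0.21). The first was already higher in PCBs than in Flk1+ MPCs, and the second was not. The estrogen-related receptor Esrra, which works with PGC-1α, had a log2 ratio of 2.55, whereas Esrrg had 0.81 and had come up earlier, with 3734 in M+CMs and 2127 in PCBs, against 88.5 in sfPCBs and 55.7 in Flk1+ MPCs. Tfam, which maintains mitochondrial DNA, differed by 0.09 ± 0.20, and Nrf1 by -0.61 ± 0.20. The fat cell regulator Pparg was the member that was lower, at 4613 in PCBs and 806 in M+CMs, beside 542 in Flk1+ MPCs and 5255 in sfPCBs (log2 ratio -2.52 ± 0.20).

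**Figure D4:**
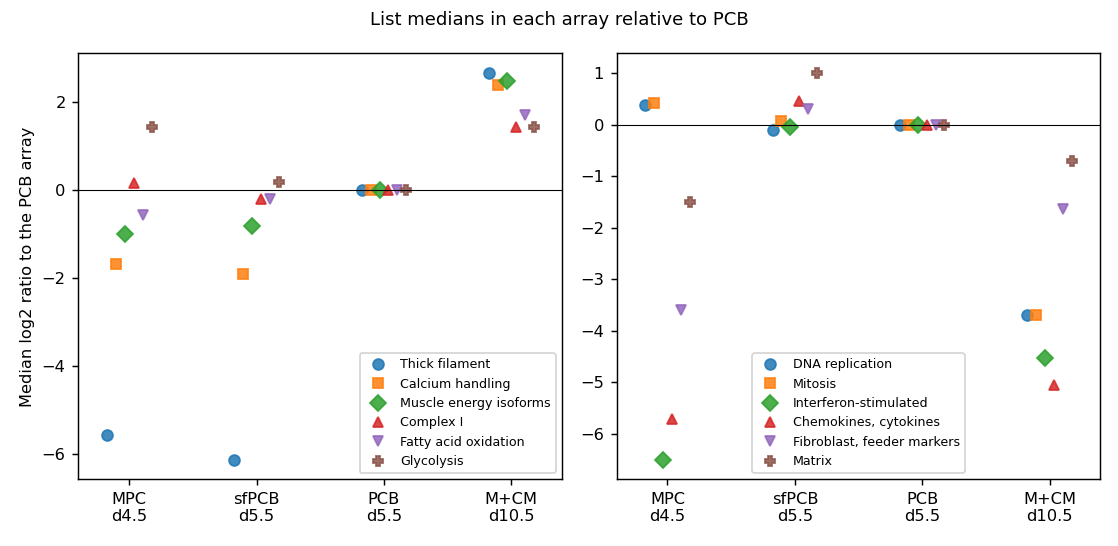
Median log2 ratio to the PCB array of 12 gene lists in each of the 4 arrays (left, contractile and metabolic lists; right, cell cycle, interferon, chemokine and stromal lists), with PCBs at 0 by construction. Thick filament genes were lowest in Flk1+ MPCs and sfPCBs and highest in M+CMs, glycolysis was lowest at day 5.5, and replication and mitosis genes were lower in M+CMs alone.

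Cardiac transcription factors differed less than the genes of the sarcomere. Of 31 factors, all above background in both arrays, 12 had at least 2-fold more signal in M+CMs and 3 at least 2-fold less, with a median log2 ratio of 0.49. The homeobox factor Nkx2-5 (NM_008700, chromosome 17) had 47780 in M+CMs and 9016 in PCBs, against 591 in sfPCBs and 657 in Flk1+ MPCs (log2 ratio 2.41 ± 0.20), and the T-box factor Tbx5 (NM_011537, chromosome 5) 2759 in PCBs and 30265 in M+CMs, beside 687 in Flk1+ MPCs and 397 in sfPCBs (log2 ratio 3.46 ± 0.20). Both were higher in PCBs than in sfPCBs and higher again in M+CMs. The homeodomain-only protein Hopx, a regulator of the growth of heart cells, had the largest ratio, with 14727 in M+CMs and 733 in PCBs, against 88.8 in sfPCBs and 87.8 in Flk1+ MPCs (log2 ratio 4.33 ± 0.20), and the atrial regulator Nr2f2 a ratio of 2.92.

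Isl1 (NM_021459, chromosome 13), which marks the second heart field, had 7023 in PCBs and 4013 in M+CMs, beside 924 in Flk1+ MPCs and 1641 in sfPCBs (log2 ratio -0.81 ± 0.20), and Meis1 (NM_001193271, chromosome 11) 17461 in M+CMs and 27911 in PCBs, against 8813 in sfPCBs and 347 in Flk1+ MPCs (log2 ratio -0.68 ± 0.20). Both were highest in PCBs, although the differences stayed under 2-fold. Gata4 differed by 0.49 ± 0.20 and Hand2 by -0.13 ± 0.20, and their signals in M+CMs were 11338 and 14801. The 3 factors at least 2-fold lower were Tbx18 (log2 ratio -1.44 ± 0.23), Irx3 (-1.43 ± 0.20) and Mef2c (-1.15 ± 0.20). The streak and mesoderm regulators T (NM_009309, chromosome 17) and Mesp1 (NM_008588, chromosome 7) were not above background in either array, after 6554 and 42204 in Flk1+ MPCs. Of the pluripotency factors, Pou5f1 (NM_013633, chromosome 17) had 12.9 in PCBs and 18 in M+CMs, beside 897 in Flk1+ MPCs and 71.6 in sfPCBs, and Sox2 8.46 in M+CMs and 217 in PCBs, against 877 in sfPCBs and 167 in Flk1+ MPCs, the latter at least 14.1-fold lower in M+CMs. Nanog had 434 in PCBs and 906 in M+CMs (log2 ratio 1.06 ± 0.20, and -0.03 for its other probe).

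Replication and mitosis genes were lower in M+CMs without exception among those listed. All 26 genes of DNA replication were at least 2-fold lower in M+CMs, with a median log2 ratio of -3.70, and 5 were at least 30-fold lower. All 30 mitosis genes were at least 2-fold lower, with a median of -3.69 and log2 ratios between -4.32 and -2.46. The licensing factor Cdc6 (NM_011799, chromosome 11) had 2336 in PCBs and 51.5 in M+CMs, beside 2972 in Flk1+ MPCs and 3356 in sfPCBs (log2 ratio -5.50 ± 0.23), the helicase subunit Mcm5 949 in M+CMs and 28807 in PCBs, against 24272 in sfPCBs and 44110 in Flk1+ MPCs (log2 ratio -4.92 ± 0.20), and the sliding clamp Pcna 73010 in PCBs and 12640 in M+CMs, beside 97203 in Flk1+ MPCs and 67451 in sfPCBs (log2 ratio -2.53 ± 0.20). For each of these genes, the signals in the 3 earlier populations lay within 2-fold of each other, and M+CMs stood apart. The proliferation marker Mki67 (NM_001081117, chromosome 7) had 3800 in M+CMs and 32058 in PCBs, against 36158 in sfPCBs and 36048 in Flk1+ MPCs (log2 ratio -3.08 ± 0.20). Top2a, which untangles chromosomes, had 9096 in PCBs and 454 in M+CMs, beside 13967 in Flk1+ MPCs and 9298 in sfPCBs (log2 ratio -4.32 ± 0.20), and the mitotic kinase Cdk1 799 in M+CMs and 12155 in PCBs, against 13098 in sfPCBs and 14658 in Flk1+ MPCs (log2 ratio -3.93 ± 0.20, with other probes up to -2.06).

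The regulators of entry into the cycle were less uniform, with 12 of 22 at least 2-fold lower in M+CMs and 4 higher. These are 54.5% and 18.2%, against 17.1% and 20.2% of all genes, and without scaling 13 were lower and 2 higher. Cyclin D1, Ccnd1, had 9377 in PCBs and 439 in M+CMs, beside 15128 in Flk1+ MPCs and 16714 in sfPCBs (log2 ratio -4.42 ± 0.20), whereas cyclin D2 differed by -0.91 ± 0.20 and cyclin D3 by 0.77 ± 0.20. The inhibitors went both ways. The cell cycle inhibitor Cdkn1a was higher, at 2256 in M+CMs and 773 in PCBs, against 1530 in sfPCBs and 1835 in Flk1+ MPCs (log2 ratio 1.55 ± 0.20, and 0.83, under 2-fold, for its other probe), and the retinoblastoma relative Rbl2 had a log2 ratio of 2.74. Among the INK4 inhibitors, Cdkn2d was higher (log2 ratio 1.02 ± 0.20), and Cdkn2a and Cdkn2b were lower, with 3220 in PCBs and 45.8 in M+CMs, beside 44.8 in Flk1+ MPCs and 4161 in sfPCBs for Cdkn2a (log2 ratio -6.14 ± 0.23) and 164 in M+CMs and 9130 in PCBs, against 7987 in sfPCBs and 92.4 in Flk1+ MPCs for Cdkn2b (log2 ratio -5.80 ± 0.21). Cdkn2c was lower too, with 456 in PCBs and 83.6 in M+CMs, beside 11.3 in Flk1+ MPCs and 375 in sfPCBs (log2 ratio -2.45 ± 0.21). Cdkn2a and Cdkn2b were high only in the 2 populations of day 5.5, as were the interferon-stimulated genes described further on, and Cdkn2c was highest in these populations.

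The promoter of Cdc6 is shown because this gene had the largest decrease of the replication list. The window and the capital are as for Tnni3.
Cdc6, chr11:98907901-98908200, plus strand: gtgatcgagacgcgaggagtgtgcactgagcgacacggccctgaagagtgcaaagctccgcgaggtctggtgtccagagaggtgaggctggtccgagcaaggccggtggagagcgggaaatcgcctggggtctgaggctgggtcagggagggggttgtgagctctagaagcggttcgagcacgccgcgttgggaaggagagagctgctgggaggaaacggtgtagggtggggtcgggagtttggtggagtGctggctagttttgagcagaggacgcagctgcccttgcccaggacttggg

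Interferon-stimulated genes and chemokines were lower in M+CMs, and several were among the 15 largest decreases. Of 31 measured interferon-stimulated genes, all above background in PCBs, 30 were at least 2-fold lower in M+CMs and 0 higher, with a median log2 ratio of -4.54 (-3.83 with normexp and quantile normalization), and 12 were at least 30-fold lower. The antiviral gene Oasl1 (NM_145209, chromosome 5) had 16561 in PCBs and 26.5 in M+CMs, beside 18.1 in Flk1+ MPCs and 7886 in sfPCBs (log2 ratio -9.29 ± 0.27), the ubiquitin-like modifier Isg15 (NM_015783, chromosome 4) 1756 in M+CMs and 113170 in PCBs, against 148990 in sfPCBs and 580.5 in Flk1+ MPCs (log2 ratio -6.01 ± 0.20), and the master regulator of the type I response, Irf7, 3115 in PCBs and 48.6 in M+CMs, beside 22.1 in Flk1+ MPCs and 1407 in sfPCBs (log2 ratio -6.00 ± 0.23). These genes were low at day 4.5, high in both populations of day 5.5 and low again at day 10.5. The smallest difference was that of Irf9, at 11391 in PCBs and 6206 in M+CMs (log2 ratio -0.88 ± 0.20). Stat2, which carries the interferon signal to the nucleus, had a log2 ratio of -2.09.

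Of 18 chemokine and cytokine genes above background, 14 were at least 2-fold lower in M+CMs and 1 higher, with a median log2 ratio of -5.05, and 6 were above background in PCBs alone. This median was -1.97 without the detection filter, -1.93 with an offset of 50 and -1.88 with normexp and quantile normalization. The T cell attractant Cxcl10 (NM_021274, chromosome 5) had 22.2 in M+CMs and 12848 in PCBs, against 7609 in sfPCBs and 39.7 in Flk1+ MPCs (log2 ratio -9.17 ± 0.30), and the monocyte attractant Ccl2 14457 in PCBs and 108 in M+CMs, beside 27.7 in Flk1+ MPCs and 20588 in sfPCBs (log2 ratio -7.06 ± 0.21). The related Ccl7 had 9.14 in M+CMs and 9784 in PCBs, against 13730 in sfPCBs and 4.7 in Flk1+ MPCs, and was at least 639-fold lower, and the cytokine Il6 had 2038 in PCBs and 3.33 in M+CMs, beside 3.51 in Flk1+ MPCs and 643 in sfPCBs, and was at least 133-fold lower. They shared the course of the interferon-stimulated genes. Tnf, Il1a and Il1b were not above background in either array. Cxcl12, which guides progenitor cells, differed less, with 2758 in M+CMs and 8916 in PCBs, against 21426 in sfPCBs and 893 in Flk1+ MPCs (log2 ratio -1.69 ± 0.20).

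The promoter of Cxcl10 is shown because this gene had the largest decrease among chemokines above background in both arrays. The window and the capital are as for Tnni3.
Cxcl10, chr5:92348840-92349139, minus strand: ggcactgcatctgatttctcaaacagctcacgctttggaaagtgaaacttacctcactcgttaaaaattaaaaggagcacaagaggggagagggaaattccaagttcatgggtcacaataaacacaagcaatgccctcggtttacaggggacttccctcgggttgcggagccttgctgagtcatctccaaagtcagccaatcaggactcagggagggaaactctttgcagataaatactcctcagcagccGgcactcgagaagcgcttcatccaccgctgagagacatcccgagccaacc

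Markers of fibroblasts and of feeder-like stromal cells moved with these decreases. The summed signal of the 16 listed genes was 107124 in PCBs and 8390 in M+CMs, against 135019 in sfPCBs and 7932 in Flk1+ MPCs, and 9 of the 16 were at least 2-fold lower in M+CMs and 4 higher. These are 56.25% and 25%, against 17.1% and 20.2% of all genes. The stem and stromal cell antigen Ly6a (NM_010738, chromosome 15) had 21679 in PCBs and 13.7 in M+CMs, beside 41.3 in Flk1+ MPCs and 14292 in sfPCBs, and was at least 1415-fold lower in M+CMs. The fibroblast protein S100a4 had 352 in M+CMs and 45092 in PCBs, against 63025 in sfPCBs and 137 in Flk1+ MPCs (log2 ratio -7.00 ± 0.20), and the fat cell lipid carrier Fabp4 23663 in PCBs and 384 in M+CMs, beside 102 in Flk1+ MPCs and 7958 in sfPCBs (log2 ratio -5.95 ± 0.20). These were low at day 4.5 and day 10.5. Other fibroblast genes did not share this, since Dcn had 393 in M+CMs and 124 in PCBs, against 3794 in sfPCBs and 12.5 in Flk1+ MPCs, Lum 30.2 in PCBs and 104 in M+CMs, beside 3.35 in Flk1+ MPCs and 8782 in sfPCBs, and Postn 46.6 in M+CMs and 13.2 in PCBs, against 12883 in sfPCBs and 10.2 in Flk1+ MPCs, which were high in sfPCBs alone. The part of feeder cells in the interferon, chemokine and Cdkn2a levels was not tested.

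Matrix genes split by type, with 9 of 20 at least 2-fold lower and 5 higher (median log2 ratio -0.70). These are 45% and 25%, against 17.1% and 20.2% of all genes, so the share of higher genes was near that of all genes. The fibrillar collagen Col1a1 had 28385 in PCBs and 860.0 in M+CMs, beside 1110 in Flk1+ MPCs and 58341 in sfPCBs (log2 ratio -5.04 ± 0.20), and Col6a3 of the microfibrils 568 in M+CMs and 18632 in PCBs, against 22521 in sfPCBs and 21.2 in Flk1+ MPCs (log2 ratio -5.04 ± 0.20). Fibronectin, Fn1, was lower after being bright in all 3 earlier populations, with 161970 in PCBs and 13848 in M+CMs, beside 314180 in Flk1+ MPCs and 162500 in sfPCBs (log2 ratio -3.55 ± 0.20). Basement membrane genes went the other way. Laminin α2, Lama2, which surrounds each muscle fibre, had 27921 in M+CMs and 221 in PCBs, against 192 in sfPCBs and 40.8 in Flk1+ MPCs (log2 ratio 6.98 ± 0.21), and the collagen IV chains Col4a1 and Col4a2 had log2 ratios of 1.17 and 2.03. Of 6 endoderm and epithelial genes above background, 5 were at least 2-fold lower and 0 higher. The simple epithelial keratins were among them, with 7761 in PCBs and 56.1 in M+CMs, beside 16120 in Flk1+ MPCs and 34773 in sfPCBs for Krt8 (log2 ratio -7.11 ± 0.23) and 748 in M+CMs and 31881 in PCBs, against 165440 in sfPCBs and 62908 in Flk1+ MPCs for Krt18 (log2 ratio -5.41 ± 0.20).

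Smooth muscle genes were not lower in M+CMs, with 3 of 8 at least 2-fold higher and 0 lower. Smooth muscle actin, Acta2, had 191820 in PCBs and 312110 in M+CMs, beside 2125 in Flk1+ MPCs and 124540 in sfPCBs (log2 ratio 0.70 ± 0.20). Of the 6 epicardial genes, 4 were higher and 2 lower, and their summed signal was 7331 in PCBs and 2577 in M+CMs. Among the higher, Wt1 had 559.9 in M+CMs and 69.1 in PCBs, against 471 in sfPCBs and 261 in Flk1+ MPCs (log2 ratio 3.02 ± 0.22). The 2 lower were Krt19, at 6774 in PCBs and 1340.5 in M+CMs (log2 ratio -2.34 ± 0.20), and Msln (-2.73 ± 0.22). Of 30 signalling genes above background, 6 were at least 2-fold higher (20%, against 20.2% of all genes) and 9 lower (30%, against 17.1%). The higher genes included Fgf5, at 18.4 in PCBs and 203 in M+CMs (log2 ratio 3.47 ± 0.33), Lefty1 (2.41 ± 0.25) and Sfrp1 (1.67 ± 0.21). The Wnt antagonist Dkk1 had 1160 in PCBs and 34.4 in M+CMs, beside 28991 in Flk1+ MPCs and 2552 in sfPCBs (log2 ratio -5.08 ± 0.25), the BMP target Id1 6371 in M+CMs and 30665 in PCBs, against 18839 in sfPCBs and 13704 in Flk1+ MPCs (log2 ratio -2.27 ± 0.20), and the growth factor Fgf8 3189 in PCBs and 343 in M+CMs, beside 14691 in Flk1+ MPCs and 1206 in sfPCBs (log2 ratio -3.22 ± 0.20, with other probes between -3.52 and -0.79). All 3 were lowest in M+CMs. The 8 neural genes had 1 higher (12.5%) and 2 lower (25%), against 20.2% and 17.1% of all genes, with a median log2 ratio of 0.13.

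Genes outside the lists were also among the extremes. After Cox8b, the largest increase was that of Nmrk2 (NM_027120), a kinase of muscle on the route from nicotinamide riboside to NAD, with 12509 in M+CMs and 26.6 in PCBs, against 28.3 in sfPCBs and 31.3 in Flk1+ MPCs (log2 ratio 8.88 ± 0.28). The membrane proteins Cav3 (NM_007617), the caveolin of muscle, and Tecrl (NM_153801), a protein of the sarcoplasmic reticulum known from inherited arrhythmia, went from a PCB signal of 90.5 to 25761 in M+CMs and from a PCB signal of 68.3 to 15002 in M+CMs (log2 ratios 8.15 ± 0.21 and 7.78 ± 0.22). Eef1a2 (NM_007906), the elongation factor that replaces Eef1a1 in adult muscle and nerve, went from a PCB signal of 33.8 to 4938 in M+CMs (log2 ratio 7.19 ± 0.25). These 4 are known from muscle or nerve. Fgf1 (NM_010197), a growth factor, had 25.1 in PCBs and 5286 in M+CMs, beside 64.5 in Flk1+ MPCs and 97.6 in sfPCBs (log2 ratio 7.72 ± 0.28, and 3.06 for its other probe), and Cidea (NM_007702), a lipid droplet protein best known from brown fat, 6985 in M+CMs and 38.7 in PCBs, against 33.3 in sfPCBs and 77.8 in Flk1+ MPCs. The other members of the first 15 were Tnni3, Myom2, Pln, Inpp5j, Vsnl1, Sptb, Fam78a and Hr, with log2 ratios between 7.23 and 8.86. The other probe of Fam78a gave 1.30.

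Among the decreases, Ly6c1 (NM_001252055), a relative of Ly6a, had the largest ratio, with 43640 in PCBs and 48.2 in M+CMs, beside 151 in Flk1+ MPCs and 30182 in sfPCBs (log2 ratio -9.82 ± 0.23, and -4.54 for its other probe). Osteopontin, Spp1 (NM_001204233), a secreted matrix protein, had 69.3 in M+CMs and 21325 in PCBs, against 41107 in sfPCBs and 5.65 in Flk1+ MPCs (log2 ratio -8.27 ± 0.21). Of the genes above background in PCBs alone, the secreted protease inhibitor Slpi (NM_011414) had 49008 in PCBs and 8.71 in M+CMs, beside 61.9 in Flk1+ MPCs and 30618 in sfPCBs, and was at least 3199-fold lower, and complement factor B, Cfb (NM_008198), at least 146-fold lower. All 4 were low at day 4.5 and high in both populations of day 5.5. The peptide hormone gene Cck (NM_031161) did not follow that course, since it was high in PCBs alone, with 319 in M+CMs and 51140 in PCBs, against 421 in sfPCBs and 208 in Flk1+ MPCs (log2 ratio -7.32 ± 0.20). The proteasome subunit Psmb8 (NM_010724), which interferon induces, and the lipid droplet protein Plin4 (NM_020568) had log2 ratios of -7.20 and -7.26.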

How the data were processed

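Total RNA of 4 mouse cell populations was labelled with Cy3 and hybridized to 1-colour Agilent arrays, all on 1 slide scanned on 1 day, with 1 array per population. The intensity values were deposited as the authors' Feature Extraction software (version 11.5.1.1) wrote them, after its background subtraction and without scaling between arrays. The authors also deposited a table of log2 values, and more than 99% of its values equalled the log2 of the unscaled processed signal within 0.001, with column medians of 6.883 for Flk1+ MPCs, 7.397 for sfPCBs, 7.185 for PCBs and 7.158 for M+CMs. It was used as an alternative.

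Control spots and spots flagged as outliers were left out (126 in PCBs and 144 in M+CMs, of 43020), and 0 spots were saturated. Signals were scaled to a common 75th percentile (2198.43, the mean of the 4 arrays), and repeated probes were averaged in log2, which gave 39428 probes. A probe was above background when at least 0.5 of its spots were called so, which held for 73.6% of probes in PCBs and 76.0% in M+CMs. For a gene above background in 1 of the compared arrays, the bound of its fold was the bright signal over the higher of its own dim signal and the lowest signal above background in the dim array (15.5 in PCBs, 15.3 in M+CMs). Of probes with a curated RefSeq identifier, 26164 of 26583 were named through a RefSeq gene table (GRCm38.p6), which gave 20885 genes, each taken from its brightest probe. The array's own annotation uses another build, so no probe coordinates are given. The number of arrays limits the precision. Repeated spots differed by a median SD of 0.056 in PCBs and 0.054 in M+CMs (log2). The ratio and counting steps were tested on simulated arrays. The 3 promoters printed came from a RefSeq table of 27025 windows of 300 bases.

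Named genes were the 15 largest increases and decreases above background in both arrays, the 5 largest bounds each way, up to 8 members each way per list, and genes that the study measured or that define the populations. Gene lists and members were chosen with earlier results of these data known. Other named members, within 2-fold, below background or past 2-fold outside these ranks, were chosen after their values were seen. Those past 2-fold include Cacna1c, Scn4b, Cryab, Cpt1b, Pcna, Stat2 and Cxcl12. Alternatives covered scaling, background correction, detection, an offset, probe choice and the deposited table. Analyses used Python 3.11.15, pandas 2.3.3 and numpy 2.4.6, and R 4.3.3 with limma 3.58.1. Some genes are not reported here.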

Additional observations from a re-analysis of the deposited data

How the results depend on the processing

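No paired analysis was possible because each population had 1 array and the labels carry no replicate numbers. For the same reason no array could be left out. The count of probes at least 2-fold higher in M+CMs was 6391, and it was 3811 with normexp background correction and quantile normalization, 4222 with an offset of 50 and 3467 genes with 1 value per gene. The count at least 2-fold lower was 4807, and it was 2933 genes with 1 value per gene. The count at least 30-fold higher was 201, and it was 66 with normexp and quantile normalization, 123 with both arrays above background, 71 with the offset and 132 per gene. The count at least 30-fold lower was 255, and it was 92, 144 and 98 in the first 3 of these settings. Each of the 4 counts stayed within 1.5 times its value under quantile normalization alone, no scaling, no detection filter, saturated spots left out and the deposited table. Of the 281 genes that the naming rules picked, 102 moved by more than 2 times their error with normexp and quantile normalization. With the offset 96 did, and in both settings every such move was toward a smaller ratio. With the mean of all probes 20 moved and with quantile normalization 1, and none reversed. Without scaling, every log2 ratio shifts by the same -0.21, which by itself exceeds the median error of the members of most lists. Of the medians of the 32 lists, 24 moved by more than that error without scaling, and no list past 2-fold reversed. Signals near the background limit the size of the 30-fold ratios.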
